A study of Mus musculus with 4 samples.

Results

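Among 28055 thymic epithelial cell (TEC) barcodes kept from 4 single-cell libraries, 350 were cycling TECs that held a high level of Ccl21a. A member had UMIs of at least 4 of 6 cycling genes (Mki67, Top2a, Cdk1, Ube2c, Birc5 and Pclaf) and at least 20 Ccl21a UMIs per 10000 UMIs. It also had no more than 2 UMIs of 5 T cell genes (Trbc2, Cd3d, Cd3e, Cd3g and Lck) and under 20 UMIs per 10000 of the cortical genes Prss16 and Psmb11. UMIs are unique molecular identifiers, so each counts as 1 captured RNA molecule. The members were chosen by the measured UMIs of these genes, so their levels are a description of the choice.

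The cells were EpCAM+ CD45- TER119- cells sorted from the thymus of 6-week-old C57BL/6 mice. WT-Control mice were wild type and received rat IgG as an isotype control, and WT-RANKL-Ab mice were wild type and received the anti-RANKL antibody OYC1. Cd40-/- Control and Cd40-/- RANKL-Ab mice lacked Cd40 in the germline and received the same agents. Libraries are taken in 1 order throughout: WT-Control first, WT-RANKL-Ab next, then Cd40-/- Control, with Cd40-/- RANKL-Ab last. Each agent was given once, subcutaneously, at 5 mg/kg when the mice were 4 weeks old, so the thymus was taken 2 weeks later. Each library pooled cells of 3 mice, and there was 1 library per condition. Differences between conditions therefore had no replicate check and were not tested. The 95% intervals printed with them cover counting error only.

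Medullary TECs (mTECs) line the thymic medulla, where developing T cells meet self antigens. Immature mTECs make CCL21, encoded in mouse mainly by Ccl21a, a chemokine that draws thymocytes from the cortex into the medulla. RANK and CD40, receptors on TECs, receive ligands from T cells and other blood cells and drive maturation towards cells that express Aire, a regulator of tissue-restricted antigens. Proliferating TECs low in Ccl21a are known as transit-amplifying TECs and lead to Aire+ mTECs.

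The genes behind the rule are shown at the level of the promoter, because 4 of the 6 cycling genes held both of a pair of sequence elements that the Ccl21a window lacked. Top2a (topoisomerase II alpha, which untangles DNA in mitosis) lies on the minus strand at chr11:98992943-99024189. Cdk1, the kinase that drives entry into mitosis, lies on the minus strand at chr10:69335146-69352938. Ccl21a lies on the minus strand at chr4:42772860-42773993 (mm10, GENCODE vM21). The 250 bases before the RefSeq gene start in GRCm38.p6 are chr11:99024190-99024439 for Top2a, chr10:69352913-69353162 for Cdk1 and chr4:42773992-42774241 for Ccl21a. They are written 5′ to 3′ on the strand of the gene. Capitals mark CCAAT, the letters of the CCAAT box, and TTTGAA, those of the cell cycle genes homology region (CHR), on either strand.
Top2a: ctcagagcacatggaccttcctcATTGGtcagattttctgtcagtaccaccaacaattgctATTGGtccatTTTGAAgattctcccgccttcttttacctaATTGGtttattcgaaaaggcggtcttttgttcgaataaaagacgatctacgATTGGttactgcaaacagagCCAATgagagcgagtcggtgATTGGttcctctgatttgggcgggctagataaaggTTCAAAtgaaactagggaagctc
Cdk1: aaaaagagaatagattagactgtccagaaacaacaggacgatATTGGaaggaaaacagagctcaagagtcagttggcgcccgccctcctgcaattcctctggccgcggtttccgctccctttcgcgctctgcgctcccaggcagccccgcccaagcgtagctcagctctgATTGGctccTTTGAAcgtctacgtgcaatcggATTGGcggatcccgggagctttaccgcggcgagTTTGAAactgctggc
Ccl21a: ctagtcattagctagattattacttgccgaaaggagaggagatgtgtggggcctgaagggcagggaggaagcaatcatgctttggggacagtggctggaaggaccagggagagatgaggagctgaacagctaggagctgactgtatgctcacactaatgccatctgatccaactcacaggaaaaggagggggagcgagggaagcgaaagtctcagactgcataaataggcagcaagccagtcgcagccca
The Top2a window held 6 CCAAT and 2 TTTGAA matches, and the Cdk1 window held 3 and 2. Matches of both kinds stood in 4 of the 6 cycling genes (Mki67, Top2a, Cdk1 and Ube2c). The Pclaf window held 2 CCAAT matches and no TTTGAA, and the windows of Birc5 and Ccl21a held neither. Of 32851 promoter windows of the same length, 33.8% held CCAAT, 16.0% TTTGAA and 5.55% both. A match gives letters only and was not tested as a site.

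The members numbered 149 in WT-Control, 79 in WT-RANKL-Ab, 117 for Cd40-/- Control and 5 in Cd40-/- RANKL-Ab. Cells per library before this choice numbered 10218, 7164, 8591 and 2082, in that order. The members held 2599492, 877996, 1711046 and 77772 UMIs. The median member held 15223, 11390, 13070 and 15674 UMIs, against 5822, 6043, 5152 and 7341 in non-cycling Ccl21a-high cells, which had no UMI of any of the 6 cycling genes. Cycling Ccl21a-low TECs, which passed the other limits but had under 20 Ccl21a UMIs per 10000, held 18294, 13330, 17108 and 14366 at the median. Scrublet, which scores the likeness of a barcode to a simulated mixture of 2 cells, placed 20.8%, 2.53%, 16.2% and 60% of the members among the highest 5% of scores of their library. The share was 3.51% to 5.62% in non-cycling Ccl21a-high cells. In cycling Ccl21a-low TECs it was 4.80%, 0%, 4.87% and 33.3%, the last 1 of 3 cells. Whether the members held mixed barcodes of other groups was not tested. Values without the barcodes of the highest scores are given beside the main shares and the counts over all genes tested. Scrublet called 5 doublets in all libraries together and none among the members, so the caller marked too few to be of use. Of the members, 10 carried a barcode that also occurred in another library.

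The label was checked on markers. The members were epithelial, with Epcam at 1212, 1333, 1085 and 1492 CPM (UMIs scaled to the total of the group of cells) in the 4 libraries. Foxn1, the transcription factor that defines TECs, stood at 51.2, 36.5, 35.7 and 38.6 CPM. The 10 thymocyte markers summed to 15.4, 7.97, 25.7 and 12.9 CPM in the members, with Cd8a at 0 in both antibody-treated libraries and at 0.769 and 0.584 CPM in the controls. The 7 markers of other blood cells summed to 117.7, 21.6, 50.3 and 0 CPM in the members and to 99.7, 36.9, 102.1 and 6.54 CPM in non-cycling Ccl21a-high cells. Most of that sum was Lyz2, a lysozyme gene, and Ptprc (CD45) was at 0 in WT-Control and Cd40-/- RANKL-Ab members. Stromal, erythroid and parathyroid markers summed to at most 20.5, 3.08 and 4.09 CPM in any library of members. Tuft markers summed to 64.3 to 115.0 CPM. In the knockout check, Cd40 stood at 69.6 CPM in WT-Control members, 25.1 in WT-RANKL-Ab, 8.18 for Cd40-/- Control and 0 in Cd40-/- RANKL-Ab. The deleted stretch is not given in the sources used here, so UMIs outside it could remain.

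Ccl21a levels of the cycling cells ran from 0 to high values without a gap. Among 1491 cycling cells, 56 had 10 to 20 Ccl21a UMIs per 10000, just under the limit, and 38 had 20 to 30, just over it. At the other limit, 87 Ccl21a-high cells held 3 of the 6 cycling genes and 83 held 4. The members' median Ccl21a level was 82.1 UMIs per 10000 in WT-Control, 105.4 in WT-RANKL-Ab, 72.5 for Cd40-/- Control and 205.5 in Cd40-/- RANKL-Ab. Non-cycling Ccl21a-high cells stood higher, at 235.4, 237.5, 179.2 and 374.2. The gene's near-identical copies can share reads, so the Ccl21a level stands for the group of copies. Some cells of other types also passed the Ccl21a limit: 2.08%, 10.9%, 0.969% and 1.62% of thymocytes and 18.2%, 16.7%, 7.35% and 7.14% of tuft cells had 20 or more Ccl21a UMIs per 10000, and the source of these UMIs was not tested. Thymocytes held a median of 1441 to 2475 UMIs, far fewer than the members.

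**Figure D1:**
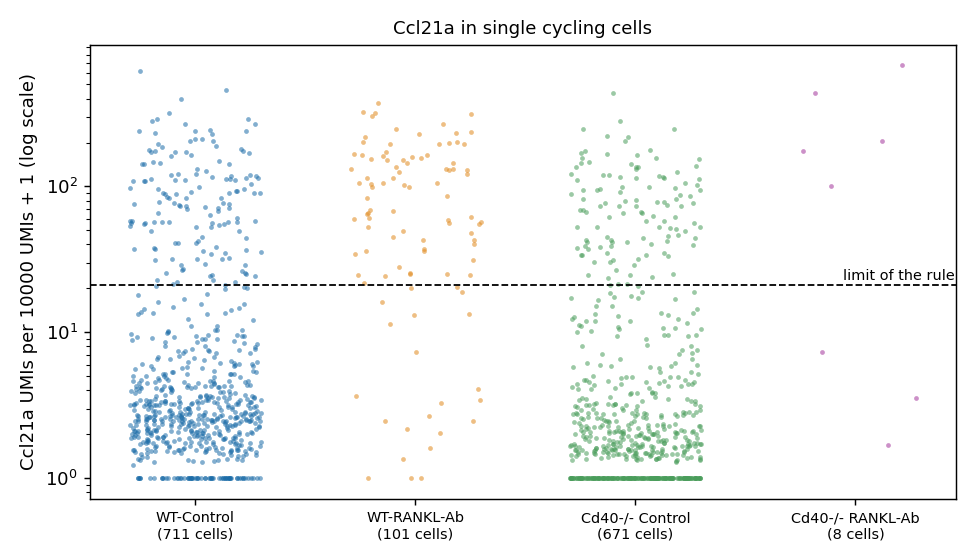
Ccl21a UMIs per 10000 UMIs plus 1 (log scale) in each cycling cell, by library; the dashed line is the limit of 20 per 10000, and spread along the x axis is for display only. Points lie below the line in WT-Control and Cd40-/- Control for most cells and above it for 79 of 101 cells in WT-RANKL-Ab.

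The first question was how common cycling was among Ccl21a-high cells. Members made up 3.58% (3.04 to 4.19) of Ccl21a-high cells in WT-Control, 149 of 4160. The share was 1.85% (1.47 to 2.3) in WT-RANKL-Ab, 79 of 4268. In Cd40-/- Control it was 4.59% (3.81 to 5.48), 117 of 2549. In Cd40-/- RANKL-Ab it was 0.480% (0.156 to 1.1), 5 of 1041. Both libraries from antibody-treated mice thus stood below both controls, and no interval of an antibody library met that of a control library. With the limit at 100 Ccl21a UMIs per 10000 this separation was lost in wild type, where the share was 1.29% (0.941 to 1.73) in WT-RANKL-Ab and 1.79% (1.37 to 2.31) in WT-Control. Without the highest Scrublet scores the shares were 3.06%, 1.89%, 4.10% and 0.201%, the last from 2 of 997 cells. After thinning to 2000 UMIs they were 1.41%, 0.790%, 1.93% and 0.0997%, the last from 1 of 1003 cells. There too the interval of WT-RANKL-Ab (0.530 to 1.13) met that of WT-Control (1.06 to 1.84), with a log2 ratio of -0.83 (-1.54 to -0.16). The log2 ratio to WT-Control was -0.95 (-1.36 to -0.55) for WT-RANKL-Ab, 0.36 (-0.004 to 0.72) for Cd40-/- Control and -2.90 (-4.54 to -1.64) for Cd40-/- RANKL-Ab.

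The second question was which part of all cycling TECs was Ccl21a-high. Here the order differed: members made up 21% (18.0 to 24.1) of cycling cells in WT-Control and 17.4% (14.6 to 20.5) in Cd40-/- Control, but 78.2% (68.9 to 85.8) in WT-RANKL-Ab. In Cd40-/- RANKL-Ab 5 of 8 cycling cells were members, or 62.5% (24.5 to 91.5). Without the highest Scrublet scores the shares of the 4 libraries were 18.1%, 77.8%, 15.7% and 50%, the last from 2 of 4 cells. Cycling Ccl21a-low TECs numbered 562, 22, 554 and 3 in the 4 libraries, so their count differed far more between libraries than the members' did. Of all kept cells the members were 1.46%, 1.10%, 1.36% and 0.240%. Their order among the first 3 libraries changed with the limits, to 0.577%, 0.614% and 0.419% at 100 Ccl21a UMIs per 10000 and to 1.37%, 1.08% and 1.54% after thinning to 5000 UMIs. Counts from sorted and pooled cells give shares, not cell numbers per thymus.

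**Figure D2:**
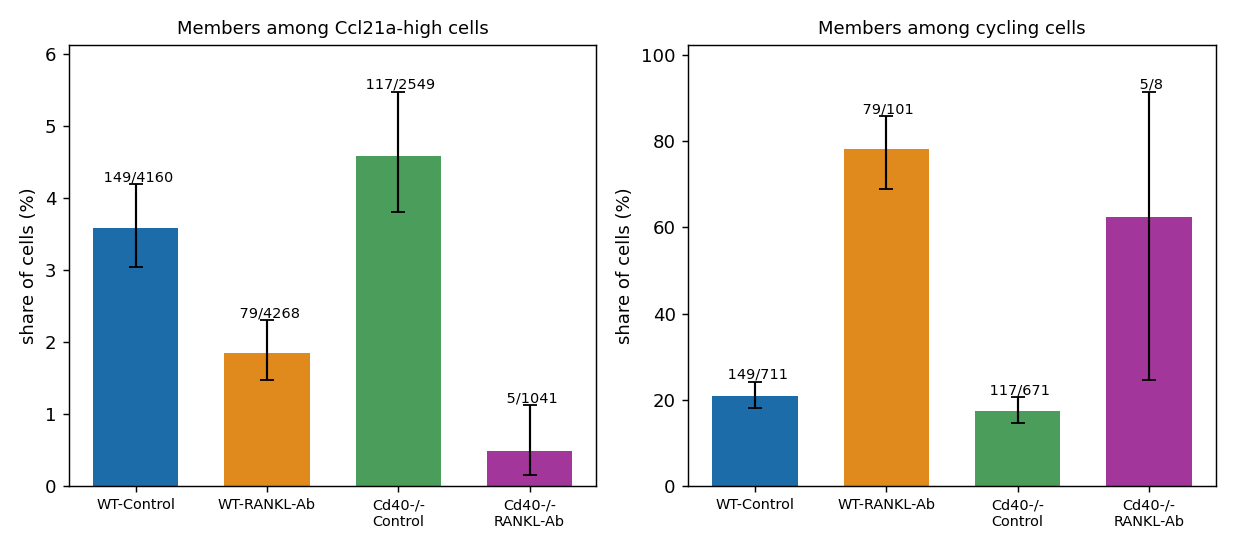
Share of members among Ccl21a-high cells (left) and among cycling cells (right) in each library, in percent, with exact 95% binomial intervals as bars and the counts above them. Among Ccl21a-high cells WT-RANKL-Ab (1.85%) stands below WT-Control (3.58%), and among cycling cells it stands above (78.2% against 21%).

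Cell cycle phase was read from genes of S phase (43 genes, such as Mcm5, part of the replicative helicase) and of G2 and mitosis (49 genes, such as Hmgb2 and Cenpf). S phase genes summed to 23.3, 27.1, 27.9 and 22.9 UMIs per 10000 in members of the 4 libraries. They summed to 18.9, 25.2, 22.4 and 35.1 in cycling Ccl21a-low TECs, and to 4.56 to 5.17 in non-cycling Ccl21a-high cells. G2/M genes summed to 74.3, 104.0, 74.4 and 102.2 in members and to 76.4, 149.3, 76.7 and 137.9 in cycling Ccl21a-low TECs. Members of both antibody libraries thus held more G2/M UMIs than members of both controls. The log2 ratio of S to G2/M UMIs was higher in members than in cycling Ccl21a-low TECs by 0.34 in WT-Control, 0.62 in WT-RANKL-Ab and 0.36 for Cd40-/- Control, and differed by -0.18 in Cd40-/- RANKL-Ab. The mean was 0.28 ± 0.34 (SD, n = 4 libraries). The mean turned to -0.04 when each cell was thinned to 2000 UMIs, where Cd40-/- RANKL-Ab entered with 14 S phase UMIs in 5 members. In the gene test below, 0 of 43 S phase genes passed between the 2 cycling groups (edgeR, median log2 difference 0.28, 8 at an unadjusted p under 0.05), as did 1 of 49 G2/M genes (median -0.13, 9 at an unadjusted p under 0.05). DESeq2 called 0 of the S phase genes and 4 of the G2/M genes, the 4 lower in members. Without Cd40-/- RANKL-Ab, edgeR called 3 S phase genes higher.

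**Figure D3:**
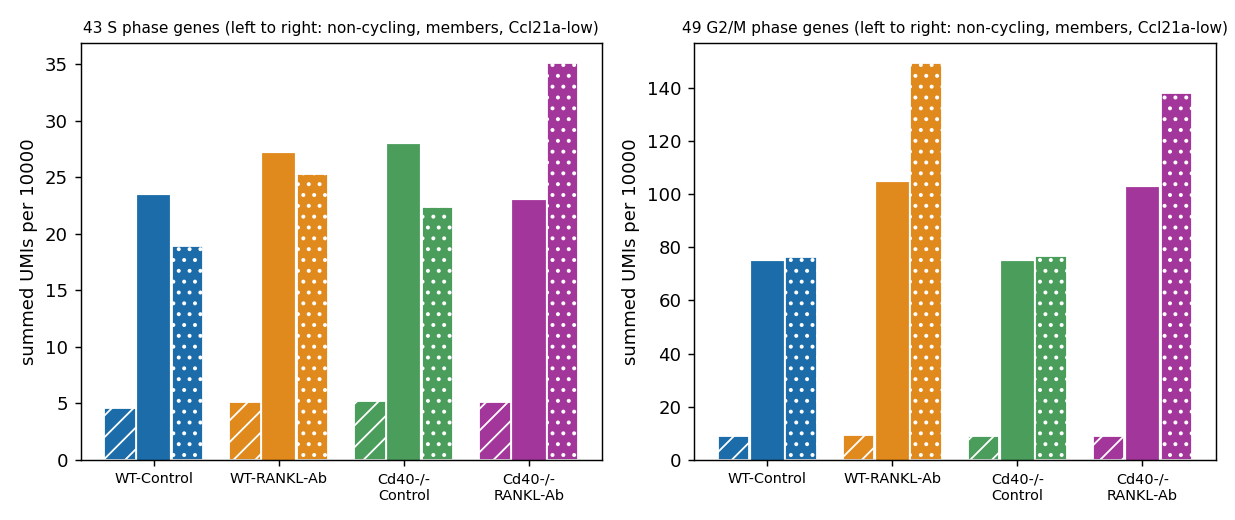
Summed UMIs per 10000 UMIs of 43 S phase genes (left) and 49 G2/M genes (right); in each library the hatched bar is non-cycling Ccl21a-high cells, the plain bar members and the dotted bar cycling Ccl21a-low TECs. Members and cycling Ccl21a-low TECs both stand several times above non-cycling cells, and the Cd40-/- RANKL-Ab bars rest on 5 and 3 cycling cells.

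To learn how the members differed from other cycling TECs, UMIs were summed per library and group and tested with edgeR, with the library as a block, so that members were compared with cycling Ccl21a-low TECs of the same library. Both groups cycled, and the difference that defined them was Ccl21a. Members held more of the genes of immature mTECs and of the interferon-stimulated genes, and fewer transcripts of Aire and its accompanying genes. Because the split was made on Ccl21a, genes that vary with Ccl21a were tied to that choice. Calls of such genes, among them those of Ccl21a+ mTECs and Aire, describe the split and are no separate support. Of 10316 genes tested, 648 were higher in members (6.28%) and 312 lower (3.02%) at an adjusted p under 0.05. The median log2 difference of all genes was -0.01. The 4 libraries are 4 conditions, so a p-value measures whether a difference holds across these libraries. The count rested on the libraries with many cycling Ccl21a-low TECs: it fell to 28 higher and 2 lower without WT-Control and to 23 and 1 without Cd40-/- Control, and rose to 1321 and 934 without WT-RANKL-Ab and to 837 and 507 without Cd40-/- RANKL-Ab. Leaving out the highest Scrublet scores gave 512 higher and 302 lower, DESeq2 gave 636 and 397, and dropping the block gave 200 and 21. Thinning each cell to 5000 UMIs gave 421 and 174, and edgeR's default fit 977 and 635.

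Of 15 genes of Ccl21a+ mTECs, 11 were higher in members and 0 lower, with a median log2 difference of 1.84. Over all genes tested 6.28% were higher and 3.02% lower. DESeq2 called 13 higher and 0 lower, and the edgeR count was 3 without WT-Control and 3 without Cd40-/- Control. Krt5, a basal keratin, stood at 827, 1511, 815 and 1954 CPM in members and at 164, 463, 172 and 573 CPM in cycling Ccl21a-low TECs, in the order of libraries given above. All 4 member values lay above all 4 Ccl21a-low values, and the log2 difference was 2.05 ± 0.14 (SE, adjusted p = 0.00037). Gpx3, a secreted glutathione peroxidase, stood at 507, 399, 121 and 643 CPM in members against 28.4, 35.0, 12.9 and 23.9 CPM. The groups did not overlap for Gpx3 either (3.67 ± 0.23, adjusted p = 0.00029). Igfbp5, which binds insulin-like growth factors, Lifr, a cytokine receptor, and Ly6a (Sca-1) differed by 2.68, 2.55 and 2.28. Krt14, Krt15, Krt17, the integrin genes Itga6 and Itgb4, and Trp63, the transcription factor of basal epithelia, differed by 0.68 to 1.84. Mgp (2.98, adjusted p = 0.075), Apoe and Pdpn were among those that did not pass. In Mgp the 2 cycling groups were close in the antibody libraries, with 330 against 214 CPM in WT-RANKL-Ab and 1016 against 835 CPM in Cd40-/- RANKL-Ab, and far apart in WT-Control, with 504 against 17.8 CPM.

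Of 30 interferon-stimulated genes, 24 were higher in members and 0 lower (median log2 difference 1.87), and by DESeq2 23 and 0. Over all genes tested edgeR called 6.28% higher and 3.02% lower. Ifit3, an antiviral effector on chromosome 19 (chr19:34583531-34588731), stood at 135.0, 112.8, 101.1 and 25.7 CPM in members. It stood at 4.04, 31.1, 4.02 and 0 CPM in cycling Ccl21a-low TECs, so that the WT-RANKL-Ab Ccl21a-low value lay above the lowest member value. The log2 difference was 4.31 ± 0.47 (adjusted p = 0.0024). Isg15, a ubiquitin-like protein induced by interferon, stood at 630, 395, 337 and 103 CPM in members against 35.8, 213.9, 21.7 and 0 CPM (3.14 ± 0.52, adjusted p = 0.0061). Irf7, a transcription factor that amplifies the interferon response, differed by 3.24 ± 0.38. Cxcl10, Usp18, Mx1, Lgals3bp, Ifih1 and Ifi35 did not pass. None of the 30 passed without WT-Control, and none without Cd40-/- Control, although the median stayed at 1.66 and 1.75. The list summed to 4356, 4113, 3899 and 2572 CPM in members, 1530, 2365, 1443 and 1241 CPM in cycling Ccl21a-low TECs, and 7302, 4026, 6085 and 1812 CPM in non-cycling Ccl21a-high cells. Members thus lay between the other groups in both control libraries, while in WT-RANKL-Ab the interval of members (3980 to 4249 CPM) met that of non-cycling cells (4000 to 4051 CPM). The Cd40-/- RANKL-Ab value rests on 5 members.

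**Figure D4:**
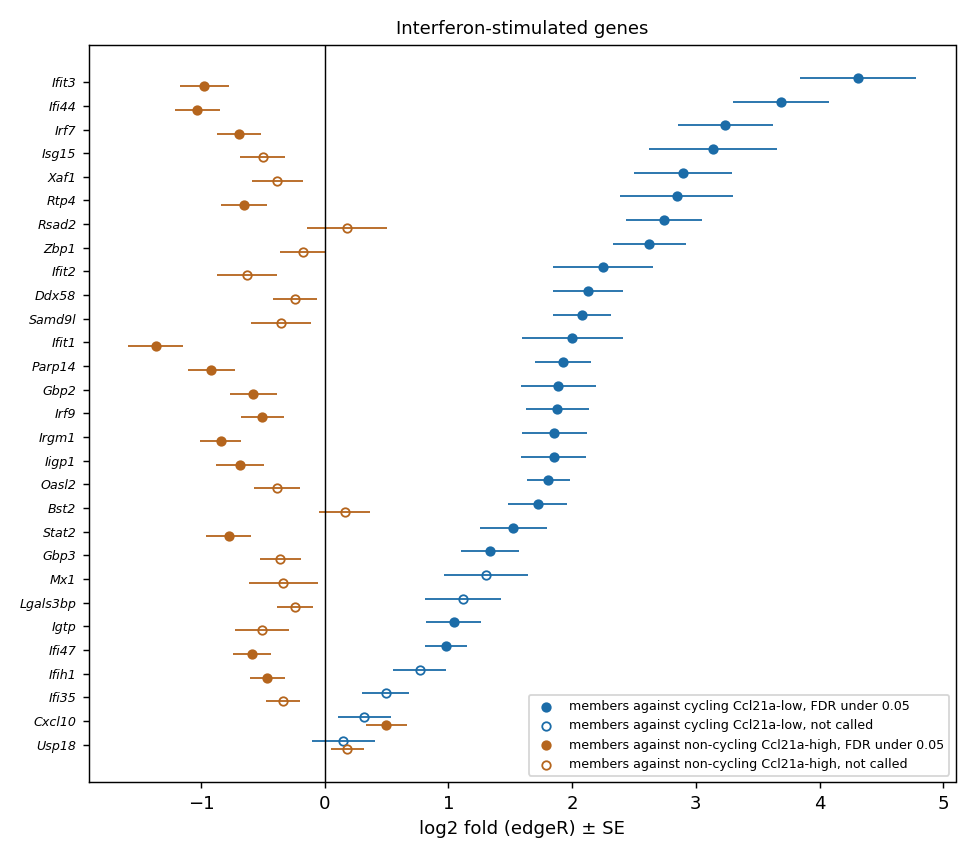
Log2 difference (edgeR, bars are 1 SE) of interferon-stimulated genes of the list in members against cycling Ccl21a-low TECs (blue) and against non-cycling Ccl21a-high cells (brown); filled points passed an adjusted p of 0.05. Blue points lie to the right of 0, with Ifit3 at 4.31, and most brown points lie to the left.

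Genes of mature mTECs differed the other way. Of 10 tested, 4 were lower in members than in cycling Ccl21a-low TECs and 0 higher (median log2 difference -0.70), and by DESeq2 5 and 0. Over all genes tested edgeR called 3.02% lower and 6.28% higher. None of the mature mTEC genes passed without WT-Control or without Cd40-/- Control. Aire, on the minus strand at chr10:78030022-78043610, stood at 149.6, 42.1, 95.8 and 0 CPM in members of the 4 libraries. It stood at 455.4, 155.6, 442.7 and 214.8 CPM in cycling Ccl21a-low TECs, above every member value, and the log2 difference was -2.06 ± 0.27 (adjusted p = 0.0042). Cd80, a costimulatory ligand, differed by -1.92, Cd52 by -1.28, and Tnfrsf11b, the RANKL decoy receptor, by -1.24. Fezf2, another regulator of tissue antigens, stood at 325, 303, 319 and 283 CPM in members and did not pass (-0.26, adjusted p = 0.66). Of 4 genes of early Aire-lineage cells, Utf1 and Tmem158 were lower, with log2 differences of -1.27 and -1.0, and Hes6 and Nkx6-2 did not pass. Aire did not pass without the block (adjusted p = 0.091), without WT-Control (0.084) or without Cd40-/- Control (0.14).

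Genes of the RANK, CD40 and lymphotoxin beta receptor pathways were counted in the same comparison. Of 19 measured genes of that list, 1 was higher (5.26%) and 2 were lower (10.5%) in cycling Ccl21a-high than in cycling Ccl21a-low TECs. Over all genes tested these shares were 6.28% and 3.02%. Tnfrsf11a, which encodes RANK, stood at 87.3, 53.5, 73.1 and 128.6 CPM in members against 75.7, 42.8, 78.7 and 71.6 CPM, and its log2 difference was 0.12 ± 0.19 (adjusted p = 0.79). Relb, a subunit of noncanonical NF-κB, differed by -0.43 ± 0.19 (adjusted p = 0.23). Ltb, a lymphotoxin subunit, and Nfkbie, an inhibitor of NF-κB, were lower, with log2 differences of -1.22 and -0.94, and Tnfaip3, which encodes the NF-κB feedback inhibitor A20, was higher by 1.74. None of 7 MHC class II genes passed (median -0.05, 2 at an unadjusted p under 0.05). Among 15 regulators of G1, only Cdkn2a, a locus of cell cycle inhibitors, passed, at -1.09. Of 7 AP-1 genes 0 passed, with a median of 0.60 and 2 at an unadjusted p under 0.05. By DESeq2, 1 MHC class II gene was lower and 0 AP-1 genes passed.

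The 10 highest log2 differences that had the same direction in all 4 libraries were those of Ccl11, Mill1, Ch25h, Scn3b, C1s1, Sostdc1, Cpxm1, Phf11d, Ifit3b and Ifit3, from 4.31 to 6.02. Ccl11, the chemokine eotaxin, stood at 210.8, 44.4, 218.6 and 12.9 CPM in members against 5.21, 0, 1.44 and 0 CPM in cycling Ccl21a-low TECs. In WT-RANKL-Ab 69.2% of the members' Ccl11 UMIs came from 1 cell. Sostdc1, a secreted inhibitor of BMP signaling, stood at 53.1, 49, 88.3 and 167.2 CPM against 2.34, 0, 3.30 and 0 CPM. C1s1, a complement protease, stood at 53.9, 60.4, 59.6 and 167.2 CPM against 1.71, 15.6, 1.75 and 0 CPM. Ifit3b and Ifit3 are near-identical neighbours, which may share reads. The 10 lowest were Ccr10, Selenbp1, Dhh, Maoa, Olfm4, Aire, Il13, Lsp1, Ttc39a and Tcea3, from -2.78 to -2.03. For most of these the direction in Cd40-/- RANKL-Ab rested on single UMIs. Ccr10, Dhh, Maoa, Il13, Lsp1, Ttc39a and Tcea3 had 1 UMI in its 3 cycling Ccl21a-low TECs and 0 in members. Selenbp1 had 1 UMI in each group there, and Il13 and Tcea3 had 1 UMI in each group of WT-RANKL-Ab. Ccr10, a chemokine receptor, stood at 8.08, 2.28, 5.84 and 0 CPM in members against 45.0, 31.1, 36.9 and 23.9 CPM. Olfm4, a secreted olfactomedin, stood at 70.4, 20.5, 45.6 and 0 CPM against 208.8, 171.1, 188.3 and 190.9 CPM. In the fits without WT-Control or without Cd40-/- Control, 11 of these 20 genes lost their call in at least 1. They were Ch25h, Ifit3b, Ifit3, Ccr10, Selenbp1, Maoa, Olfm4, Aire, Il13, Lsp1 and Ttc39a, at edgeR adjusted p from 0.050 to 0.41. Genes that the low-count filter removed from such a fit were not counted as lost. Over all genes these fits called only 2 and 1 lower, so the remaining falls did not all keep their call. Markers of other cells moved too, with Col3a1 higher (3.14), Dclk1, a tuft marker, higher (1.38) and Lyz2 lower (-1.74), and their part in the result was not tested.

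The members were next set against non-cycling Ccl21a-high cells in the same way. Of 13101 genes tested, 1721 were higher in members (13.1%) and 1647 lower (12.6%), with a median log2 difference of -0.06 over all genes. Counts fell to 758 and 517 without WT-Control and to 940 and 633 without Cd40-/- Control, and were 1146 and 871 by DESeq2. They were 763 and 417 without the block and 1067 and 912 after thinning to 5000 UMIs. Leaving out the highest Scrublet scores gave 1517 higher and 1731 lower, so more genes were then lower than higher. These counts include genes of S phase and G2/M, which followed from the rule and are given as levels with no test. Further cell cycle genes stood at or near 0 in the non-cycling cells. Ccna2, which encodes cyclin A2, stood at 139.3, 191.3, 135.0 and 154.3 CPM in members and at 0.531, 0.256, 0.872 and 0.136 CPM in non-cycling cells. Depdc1a, Mxd3, Ska1 and Iqgap3 had 154 to 209 UMIs in all members together and 4 to 9 in all non-cycling cells, and Kif14 had 76 and 2. Of 15 G1 regulators 8 were higher, among them Ccnd1 and Ccnd2 (cyclins D1 and D2), by 0.78 and 1.35, E2f1 by 4.40 and Cdkn2c, a CDK inhibitor, by 2.36, and Cdkn1c (p57) was lower, at -1.11. By DESeq2 5 were higher and 1 was lower. Cell cycle genes outside the rule were tied to the choice of cycling cells too, so their values here describe that choice.

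Genes of Ccl21a+ mTECs were lower in members than in non-cycling Ccl21a-high cells: 10 of 15 were lower and 0 higher (median log2 difference -0.73), and by DESeq2 9 and 0. For this list and those below, 12.6% of all genes tested were lower and 13.1% higher. Mgp, matrix Gla protein, stood at 504, 330, 411 and 1016 CPM in members against 1406, 916, 1912 and 1901 CPM, and differed by -1.51 ± 0.17 (adjusted p = 2.5e-05). Gpx3 stood at 1110, 1063, 708 and 1657 CPM in non-cycling cells, above the member values given above, and differed by -1.57 ± 0.20 (adjusted p = 8.0e-05). Krt5, Krt14, Krt17 and Pdpn were among those that did not pass. Of 30 interferon-stimulated genes, 13 were lower, such as Ifit1 with a log2 difference of -1.36, and Cxcl10 was higher by 0.50. By DESeq2 8 were lower and 0 higher, and the lower count was 2 without WT-Control and 4 without Cd40-/- Control. Of 7 AP-1 genes, 5 were lower, among them the immediate early genes Fos and Jun, with log2 differences of -0.81 and -0.54, and 1 was lower without WT-Control. Of 12 mature mTEC genes, 4 were higher (Aire 1.33 ± 0.14, Tnfrsf11b 0.84, Cd40 0.69 and Fezf2 0.63) and Cd52 was lower, at -0.99. Without WT-Control 2 were higher, as by DESeq2 and without the highest Scrublet scores, and without Cd40-/- Control 1 was. Utf1 was higher by 1.95, at 256.6, 124.1, 185.3 and 12.9 CPM in members against 54.6, 65.8, 38.1 and 3.82 CPM. Of 7 MHC class II genes 0 passed (edgeR, median 0.06, 0 at an unadjusted p under 0.05, 0 by DESeq2). The largest falls rested on few UMIs: Nefl, Meg3, Epha5, Ifitm10, Tmem236, Clic6 and Podn had 0 UMIs in all members together, and with the floor of 3 counts over the group they were at least 3.06-fold to at least 4.74-fold lower. These genes passed the low-count filter through the non-cycling sums alone. They could come out only as lower, so their calls are a description and no support. In the fits without WT-Control or without Cd40-/- Control, 6 of the 16 genes named by size in this comparison lost their call in at least 1. They were C1qtnf3, Epha5, Ifitm10, Plcb2, Podn and Tmem236, at edgeR adjusted p from 0.053 to 0.10. Genes that the low-count filter removed from such a fit were not counted as lost.

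**Figure D5:**
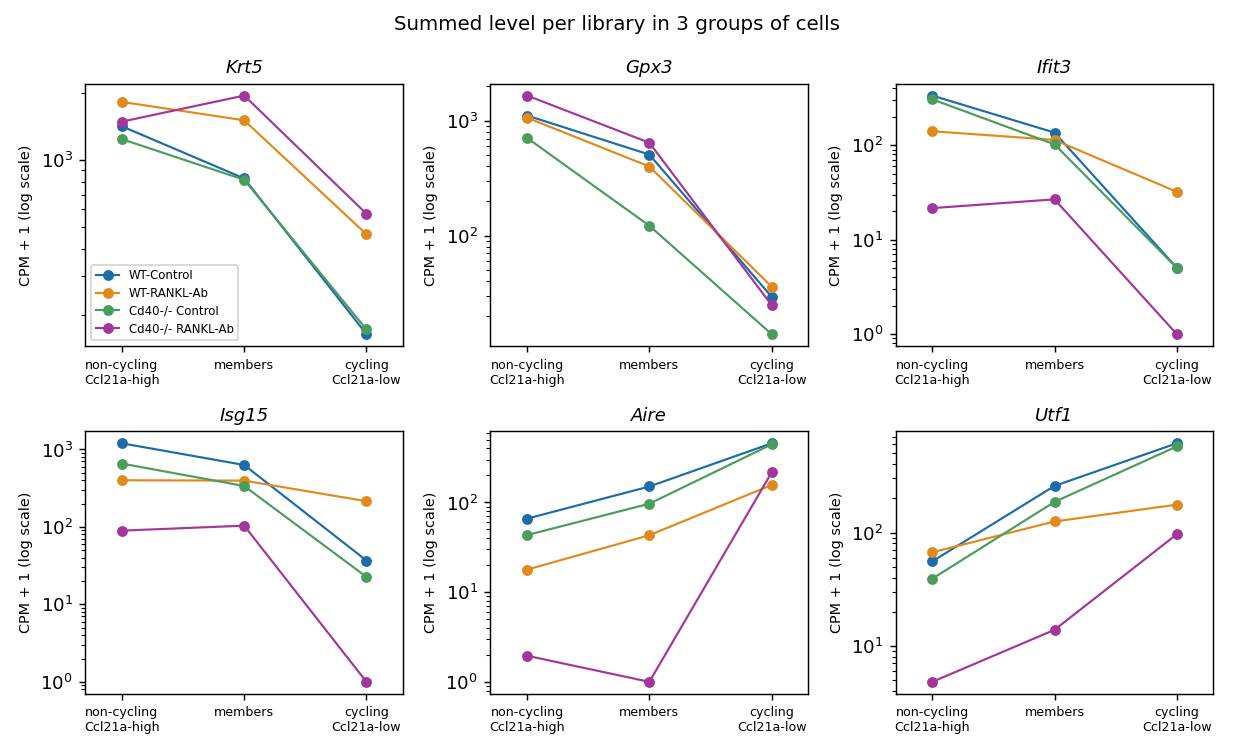
Level per library (CPM + 1, log scale) of 6 genes in non-cycling Ccl21a-high cells, members and cycling Ccl21a-low TECs, with 1 line per library. Gpx3 falls from left to right in each library, while Utf1 rises, and the Cd40-/- RANKL-Ab line rests on 5 members and 3 cycling Ccl21a-low TECs.

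The 2 comparisons share the member sums, so a gene's position in both is given only as its values. Of 10290 genes tested in both, 16 were higher in members in both at an adjusted p under 0.05. Lgals1 (galectin-1) was singled out from these after its values were seen, so its adjusted p-values do not allow for that choice. Lgals1 stood at 944.4, 626.4, 560.5 and 4526 CPM in members. It stood at 195.9, 365.6, 123.7 and 525.0 CPM in cycling Ccl21a-low TECs and at 526.6, 216.2, 279.1 and 665.6 CPM in non-cycling Ccl21a-high cells. Its log2 difference was 2.04 ± 0.31 (adjusted p = 0.0067) against the former and 1.55 ± 0.22 (adjusted p = 0.00017) against the latter, and members were higher in 4 of 4 libraries in both.

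Because depth differed, the presence of Aire was also read per cell after thinning to 2000 UMIs. An Aire UMI was found in 17.7%, 8.97%, 14.7% and 0% of members of the 4 libraries. The share was 6.98%, 2.39%, 3.93% and 0% in non-cycling Ccl21a-high cells and 51.2%, 23.8%, 51.1% and 33.3% in cycling Ccl21a-low TECs. Thymocytes, which should lack Aire, gave 18.5% (5 of 27 cells), 1.80%, 1.80% and 0%, so the WT-Control share of members was not above that background. Tuft cells gave 8.02%, 0.954%, 2.20% and 0%. Members were above non-cycling cells by 7.0 ± 5.06 percentage points (SD, n = 4 libraries, higher in 3), which did not pass an exact two-sided sign-flip permutation test over libraries (p = 0.25). They were below cycling Ccl21a-low TECs in 4 of 4 libraries, by a mean difference of -29.5 ± 9.91 percentage points (exact permutation p = 0.13, the smallest that 4 libraries allow). Without thinning, 51.0%, 24.1%, 33.3% and 0% of members held an Aire UMI, against 14.4%, 5.72%, 7.48% and 0.639% of non-cycling and 88.6%, 36.4%, 91.3% and 33.3% of cycling Ccl21a-low cells. At 2000 UMIs, 0 to 2 members and 62 to 612 non-cycling cells of a library were too shallow to enter.

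The members varied among themselves with their Ccl21a level. In 99 members with 20 to 50 Ccl21a UMIs per 10000, Aire stood at 160.9 CPM (141.6 to 182.1), in 108 with 50 to 100 at 146.5 (129.7 to 165.0), and in 143 with 100 or more at 36.2 (28.1 to 46.0). Krt5 pooled over libraries ran in the opposite order, at 675, 962 and 1180 CPM, as did Mgp at 140.3, 342.5 and 825 CPM and Gpx3 at 117.8, 266.8 and 673 CPM. Fezf2 stood at 369, 368 and 227 CPM. In WT-Control alone Aire stood at 193.2, 192.8 and 56.0 CPM in the 3 ranges and Mgp at 120.1, 339.2 and 1064 CPM. Aire stood at 164.1, 37.0 and 5.72 CPM in WT-RANKL-Ab. In WT-RANKL-Ab that order of the 3 mTEC genes did not hold: Mgp stood at 243.1, 58.1 and 456.0 CPM, Gpx3 at 103.3, 58.1 and 614.4 CPM and Krt5 at 1349, 1838 and 1444 CPM, with 19, 16 and 44 cells. These intervals cover counting error only, and the ranges hold different numbers of cells from each library.

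The cycling share was also compared between Ccl21a-high cells with and without Mgp or Gpx3, after thinning to 2000 UMIs and repeating the cycling call on the thinned counts. Of cells with a UMI of either gene, 0.743%, 0.448%, 0.871% and 0.116% were cycling, and of cells without, 3.08%, 1.32%, 4.94% and 0% in the 4 libraries. The difference was -1.79 ± 1.82 percentage points (SD, n = 4 libraries), lower in 3 of 4, and did not pass the exact sign-flip permutation test (two-sided p = 0.25). At 5000 UMIs it was -5.18 points, lower in 4 of 4 (exact permutation p = 0.13, the smallest possible). Without thinning, members were 3.15%, 1.60%, 3.38% and 0.410% of Ccl21a-high cells with a UMI of either gene and 5.48%, 2.38%, 9.79% and 1.54% of those without. Most members still held such a UMI, 107 of 149 in WT-Control, 46 of 79 in WT-RANKL-Ab, 70 of 117 for Cd40-/- Control and 4 of 5 in Cd40-/- RANKL-Ab.

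Finally, members were compared between conditions as levels, with no test. In WT-RANKL-Ab, 365 of 9767 genes (3.74%) were over 2-fold higher than in WT-Control members and 550 (5.63%) over 2-fold lower. In Cd40-/- Control, 466 of 10366 (4.5%) were higher and 385 (3.71%) lower. These counts moved by over 1.5 times with the settings for low genes, to 52 higher and 124 lower in WT-RANKL-Ab and 105 and 95 for Cd40-/- Control among genes with 100 UMIs. Cd40-/- RANKL-Ab has 5 members and is given mainly by its levels. Both comparisons share the WT-Control members. In non-cycling Ccl21a-high cells, 0.827% of genes were over 2-fold higher and 6.18% lower in WT-RANKL-Ab, and 2.7% and 3.34% for Cd40-/- Control.

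Genes of mature mTECs were lower in members of the other libraries than in WT-Control, with a log2 ratio of their summed UMIs of -0.98 (-1.07 to -0.90) in WT-RANKL-Ab, -0.54 (-0.59 to -0.48) in Cd40-/- Control and -2.20 (-2.63 to -1.80) in Cd40-/- RANKL-Ab. Of 10 measured, 5 were over 2-fold lower in WT-RANKL-Ab, against 5.63% of all genes, and 3 for Cd40-/- Control, against 3.71%. In both, 0 were over 2-fold higher, against 3.74% and 4.5% of all genes. The list holds Cd40, the deleted gene. Without it 4 of 9 were over 2-fold lower in WT-RANKL-Ab and 2 of 9 (Cd80 and Cd52) for Cd40-/- Control, and the summed log2 ratios were -0.97 and -0.51. Aire had a log2 ratio of -1.83 (-2.36 to -1.34) in WT-RANKL-Ab and -0.64 (-0.91 to -0.38) in Cd40-/- Control. Aire was also lower in non-cycling Ccl21a-high cells, at 65, 16.8, 42.3 and 0.954 CPM. Fezf2 differed little, with -0.10 (-0.31 to 0.10) and -0.03 (-0.19 to 0.13). Genes of Ccl21a+ mTECs summed to 10427, 12508, 10299 and 16034 CPM in members, highest in both antibody libraries. Krt5 had a log2 ratio of 0.87 (0.77 to 0.97) in WT-RANKL-Ab, -0.02 (-0.12 to 0.08) in Cd40-/- Control and 1.24 (0.99 to 1.48) in Cd40-/- RANKL-Ab. Gpx3 was lowest in Cd40-/- Control members, at -2.07 (-2.28 to -1.85).

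Of 7 AP-1 genes, 3 were over 2-fold higher in Cd40-/- Control members than in WT-Control and 0 lower, against 4.5% and 3.71% of all genes. In the 5 members of Cd40-/- RANKL-Ab 0 were over 2-fold higher and 2 lower, against 16.0% and 27.2% of all genes. The summed list stood at 1825, 1723, 2780 and 2327 CPM in members. Fos stood at 254, 239, 524 and 437 CPM in members of the 4 libraries in the same order, with both Cd40-/- libraries above both wild-type ones. Fosb stood at 18.8, 19.4, 46.2 and 38.6 CPM, but 3 UMIs make 38.6 CPM in Cd40-/- RANKL-Ab members. In non-cycling Ccl21a-high cells Fos stood at 473, 430, 730 and 1210 CPM, also with both Cd40-/- libraries above both wild-type ones. Of the RANK, CD40 and lymphotoxin beta receptor list, 4 of 19 were over 2-fold lower in WT-RANKL-Ab members and 2 in Cd40-/- Control, with 0 higher. Of the latter 2, Cd40 is the deleted gene, and without it 1 of 18 (Ltb) was lower there, against 3.71% of all genes, and 3 of 18 in WT-RANKL-Ab, against 5.63%. Nfkbie was lower in both, with log2 ratios of -1.16 (-1.68 to -0.67) and -0.87 (-1.23 to -0.52), as was Ltb, with -1.93 (-2.83 to -1.14) and -1.84 (-2.47 to -1.26). Relb differed little, with 0.04 (-0.24 to 0.32) and -0.18 (-0.42 to 0.05).

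By the fixed rule of size, the largest falls in WT-RANKL-Ab members were Pyy, S100a8, Cd52 and Sprr2a3. Pyy, the gut hormone peptide YY, stood at 172.7 CPM in WT-Control members, 10.5 in Cd40-/- Control and 0 in both antibody libraries. S100a8, a calgranulin, stood at 94.6, 0, 121.0 and 0 CPM. The largest rises in WT-RANKL-Ab members were Stmn2, Fzd2, Cxcl12 and Map3k7cl. Stmn2, a microtubule regulator of neurons, stood at 28.1, 378.1, 15.2 and 167.2 CPM in members and at 92.7, 340.9, 28.4 and 158.4 CPM in non-cycling Ccl21a-high cells. Fzd2, a Wnt receptor, stood at 19.6, 72.9, 31.6 and 167.2 CPM in members, higher in both antibody libraries than in both controls, as was Cxcl12, a chemokine, at 32.7, 105.9, 50.3 and 128.6 CPM. In Cd40-/- Control the largest falls were Pyy, Prss1, Saa1 and Gzmb and the largest rises Fabp6, Pglyrp1, Lcn2 and Swt1. Several values above came largely from 1 cell. In WT-Control 1 member held 99.3% of the Gzmb UMIs, 1 held 98.7% of Prss1, 1 held 56.6% of Saa1 and 1 held 41.4% of Pyy. In Cd40-/- Control 1 cell held 86.1% of Fabp6, 76% of Lcn2, 59.1% of Pglyrp1 and 88.9% of Pyy. In Cd40-/- RANKL-Ab 1 of 5 members held 92.3% of Stmn2, 50% of Cxcl12 and 46.2% of Fzd2. The top cell of WT-RANKL-Ab held 35.5% of Cxcl12, 13.9% of Stmn2 and 10.9% of Fzd2. Swt1 was at 48.1 CPM in WT-Control and 147.3 in Cd40-/- Control.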

How the data were processed

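Droplet-based libraries were made from EpCAM+ CD45- TER119- thymic cells, pooled from 3 mice for each of 4 conditions. The deposited files hold raw UMI counts per gene and barcode, which the authors made with Cell Ranger (5.0.1 in the file headers and the methods, 5.1 in the submitters' processing notes) on mm10. Features sharing a symbol were summed, and barcodes under 200 genes or over 25% mitochondrial UMIs were left out. No doublets were removed, and Scrublet in Scanpy 1.11.5 served only as a score. The members and gene lists were chosen with earlier results of these data known.

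Members were compared with cycling Ccl21a-low and non-cycling Ccl21a-high cells on UMI counts summed per library and group, by the quasi-likelihood test of edgeR 4.0.16 (R 4.3.3) with TMM factors, filterByExpr, the library as a block and Benjamini-Hochberg adjustment over all genes tested. These 8 sums share an animal pool within a library. On simulated counts edgeR's default fit gave 18.1% false calls against Ccl21a-low TECs (mean of 20 draws over 10316 genes), so the fit with the small-count adjustment (legacy = FALSE) was used, which gave 5.52%. In this comparison it recovered 57.2% of genes changed by 1 on the log2 scale and 96.1% of those changed by 2. In the comparison with non-cycling cells (13101 genes), the same fit gave 4.68% false calls, against 5.78% by default. This choice followed the simulations, after the calls of the default fit had been seen, and the counts of both are given. The simulated counts had 1 profile for all libraries and the same change in each, unlike the 4 conditions here. The rates of false and recovered calls may therefore not hold for the real sums. Conditions have 1 library each and were compared by level, with exact binomial, Poisson or conditional 95% intervals. CPM are UMIs scaled to the total of the group of cells, and the counts of genes past 2-fold used 1 CPM as pseudocount and genes with 20 UMIs in both libraries together. Differences over libraries were tested by an exact sign-flip permutation.

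Genes named one by one were the 10 largest rises and falls against Ccl21a-low TECs, the 6 largest rises and 10 largest falls against non-cycling cells (adjusted p under 0.05, 50 or more UMIs, the same direction in all 4 libraries), the 4 largest rises and falls per condition (10 CPM added, 100 or more UMIs), and genes of the lists and of the rule. Lgals1 was named outside these rules, after its values were seen. Alternatives were DESeq2 1.42.0, DESeq2 size factors, no filter on low counts, no block, thinned cells, other limits of the rule, the highest Scrublet scores left out, and each library left out in turn. Promoter windows and motifs came from RefSeq, and 31011 of 31053 feature IDs matched GENCODE vM21. Depth per library was 19175068 to 95607338 UMIs. Some genes of the lists enter the counts but are not reported here by name.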

Additional observations from a re-analysis of the deposited data

Results flagged for a closer look

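The summed level of 43 S phase genes in members ran in opposite directions with the antibody in the 2 genotypes. It was higher with the antibody in wild type (log2 ratio 0.22, 0.15 to 0.28) and lower in Cd40-/- mice (-0.28, -0.51 to -0.07). The summed level of 9 surface and keratin genes linked to TEC progenitors (Ly6a, Plet1, Cldn3, Cldn4, Itga6, Cd24a, Pdpn, Krt19 and Bmi1) did the same, with log2 ratios of 0.28 (0.19 to 0.37) in wild type and -0.57 (-0.93 to -0.23) in Cd40-/-. Each value compares 1 library with 1 library, and Cd40-/- RANKL-Ab holds 5 members, so the difference between the genotypes was not tested.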

How the results depend on the processing

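Some directions turned with the processing. The mean log2 S to G2/M ratio of members minus cycling Ccl21a-low TECs was 0.28 and became -0.042 after thinning to 2000 UMIs. The log2 ratio to WT-Control of the share of members in all kept cells went from -0.40 to 0.089 in WT-RANKL-Ab with the Ccl21a limit at 100 per 10000, and from -0.10 to 0.041 and 0.17 in Cd40-/- Control after thinning to 2000 and 5000 UMIs. Against cycling Ccl21a-low TECs 648 genes were higher and 312 lower. Without the replicate block (the library as a block) these were 200 and 21, thinning to 5000 UMIs gave 421 and 174, and edgeR's default fit, an alternative added after seeing the data, 977 and 635. Leaving out 1 library gave 23 to 1321 higher and 1 to 934 lower. The counts were 28 and 2 without WT-Control, 23 and 1 without Cd40-/- Control. Against non-cycling Ccl21a-high cells 1721 were higher and 1647 lower. Without the block these were 763 and 417, with DESeq2 1146 and 871, thinned to 5000 UMIs 1067 and 912, with edgeR's default fit 1936 and 1915, and with 1 library left out 758 to 2096 and 517 to 2079. The sums carry no pairing but the library itself, and of the named genes Aire, Il13 and Lsp1 lost their call without the block. Genes past 2-fold in members moved with the treatment of low genes. In WT-RANKL-Ab the 365 higher became 52 with 10 CPM added, 52 among genes with 100 UMIs and 232 with TMM factors, and the 550 lower became 205 and 124 with the former 2. In Cd40-/- Control the 466 higher became 70 and 105 and the 385 lower 97 and 95. With the Ccl21a limit at 100 per 10000, the log2 ratio to WT-Control of the share of Ccl21a-high cells in WT-RANKL-Ab was -0.47 (-1.07 to 0.12), in place of -0.95, so its interval then held 0. In Cd40-/- RANKL-Ab it was -3.93 without the highest Scrublet scores, in place of -2.90. That of the share of cycling cells became 2.39 for the WT-RANKL-Ab library, in place of 1.90, and -0.63 for Cd40-/- Control, in place of -0.27. The causes were not tested. With 1 library left out, the Mgp or Gpx3 difference ran from -2.43 to -1.03 percentage points, the Aire share from 5.76 to 9.34 above non-cycling cells and from -34.4 to -27.2 against cycling Ccl21a-low TECs. Among the main values under the alternatives, 102 were counted as little changed and 35 as moved, but a call could still change. In Cd40-/- Control the log2 ratio to WT-Control of the share of Ccl21a-high cells had a main interval that held 0 (-0.004 to 0.72). The interval lay above 0 with a mitochondrial limit of 13% (0.050 to 0.77) and with 3 of 6 cycling genes. It did so too with a Prss16 and Psmb11 limit of 5, without the highest Scrublet scores and after thinning to 5000 UMIs. It held 0 under the other alternatives. The 5 members of Cd40-/- RANKL-Ab limit each value of that library.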
